A study of Homo sapiens with 24 samples.

Results

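The transcripts of 8 transcription factors that act in pancreatic endocrine differentiation, NEUROG3, NEUROD1, NKX2-2, PAX4, PAX6, ISL1, RFX6 and INSM1, were examined for m6A peaks in 6 cell populations. A peak was assigned to a factor when the gene identifier that the authors deposited with it included that factor. This rule gave 42 of the 228472 peaks in the 6 lists, on 7 of the 8 genes, and 20046 protein-coding genes of the annotation served as the background.

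All cells came from MEL1 INSGFP/W, a human embryonic stem cell line that carries a GFP reporter at 1 INS allele. Undifferentiated hPSC were grown on CF1 feeder cells. Definitive endoderm (DE) was made with activin A and CHIR99021, and pancreatic progenitors (PP) followed after KGF, then retinoic acid, LDN-193189, GDC-0449 and vitamin C, then EGF. For human islet-like organoids (hILO), progenitors were aggregated and cultured with zinc sulfate, heparin, 616452, T3, LDN-193189, compound E and vitamin C, and the study's methods add a last step with N-acetyl cysteine and trolox. WT PP and A5-KO PP were progenitors from unedited cells and from cells in which exon 1 of ALKBH5, an m6A demethylase, was disrupted with CRISPR-Cpf1. The labels name these cells A5-KO, a name that the study uses for knockout cells in general and for 1 of its picked lines. In m6A-seq, RNA fragments bound by an m6A antibody (IP) are sequenced beside the fragments before binding (input). There were 24 libraries, 2 of IP and 2 of input for every population, and 1 peak list per population in which the reads of a group were pooled. The 4 stages formed 1 batch, made from mRNA with a SYSY antibody. WT PP and A5-KO PP formed another, prepared from total RNA with a Millipore antibody, rRNA depletion of the input and the SMARTer stranded kit, so a difference between the batches cannot be told apart from a difference in method.

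m6A is a methyl mark on adenosines of mRNA that is written mainly at DRACH sequences (where R stands for A or G, D for any base but C, and H for any base but G), often near the stop codon and in the 3′UTR, and it can affect how long an mRNA lasts. NEUROG3 starts the endocrine program in pancreatic progenitors. NEUROD1, INSM1, PAX4, NKX2-2, RFX6, PAX6 and ISL1 act with or after it, and endocrine progenitors, islet cells or both use them. Several of them, such as PAX6 and ISL1, also act in other tissues, including neurons.

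The sequences shown are the 25 nt around 1 DRACH site (in capitals) in peaks that the results turn on. The coordinates are on GRCh38, and the letters are written 5′ to 3′ on the strand of the gene. A DRACH site that starts with GGAC was taken where the window around it lay inside an exon, and otherwise the DRACH site nearest the middle of the peak. The first 3 lie where the peaks of every list with the site overlapped, and the other 5 lie in the peak with the most input reads or the highest enrichment of the gene.
INSM1, 3′UTR, chr20:20369984-20370008, plus strand, inside peaks of hPSC, PP and hILO: actccttttgGAACCcccactttta
ISL1, 3′UTR, chr5:51394054-51394078, plus strand, inside peaks of hILO, WT PP and A5-KO PP: gcaggaagagAGACTggcctccttg
RFX6, coding sequence, chr6:116927320-116927344, plus strand, inside peaks of PP, hILO, WT PP and A5-KO PP: tgcatggcttGGACTgaacagcagc
NEUROD1, exon of an alternative isoform, chr2:181673485-181673509, minus strand, at the hILO peak with the most reads: tggaacaccaGGACTgagaactctt
INSM1, 3′UTR, chr20:20370513-20370537, plus strand, in the most enriched hILO peak: tgttgaggtaGGACTatcagttccc
NKX2-2, 3′UTR, chr20:21511608-21511632, minus strand, in the hILO peak over the stop codon: ctccccggggGGACCaaaccgtccc
PAX4, 3′UTR, chr7:127610973-127610997, minus strand, in the hILO peak with the most reads: ctgcccatacAGACTgtggctcctt
PAX6, 3′UTR, chr11:31789760-31789784, minus strand, inside peaks of DE and hILO: gggaaggaatGGACTtgaaacaagg

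Peaks on these transcripts were few before the organoid stage and many in hILO. A peak was found on 1 of the 8 factors in hPSC (INSM1), on 1 in DE (PAX6), on 4 in PP (NEUROD1, INSM1, NKX2-2 and RFX6) and on 7 in hILO, all except NEUROG3. The peaks on them numbered 1 (hPSC), 1 (DE), 5 (PP) and 22 (hILO). The share of all coding genes with a peak was 60.2% (hPSC), 57.0% (DE), 52.2% (PP) and 57.7% (hILO), so the factors were below the background in hPSC and DE, near it in PP and above it in hILO. With p below 1e-05, the threshold of the study's methods, 0 factors remained in hPSC and 2 in PP, and the background was not recounted. In batch 2, with all listed peaks again, the count was 2 of 8 in WT PP (ISL1 and RFX6, 4 peaks), where 62.8% of coding genes had a peak. It was 3 of 8 in A5-KO PP (NEUROD1, ISL1 and RFX6, 9 peaks), against 69.7% of coding genes. There, all 4 NEUROD1 peaks lay off its main isoform, the longest coding isoform in GENCODE 44, and without them 2 factors and 5 peaks remained.

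**Figure D1:**
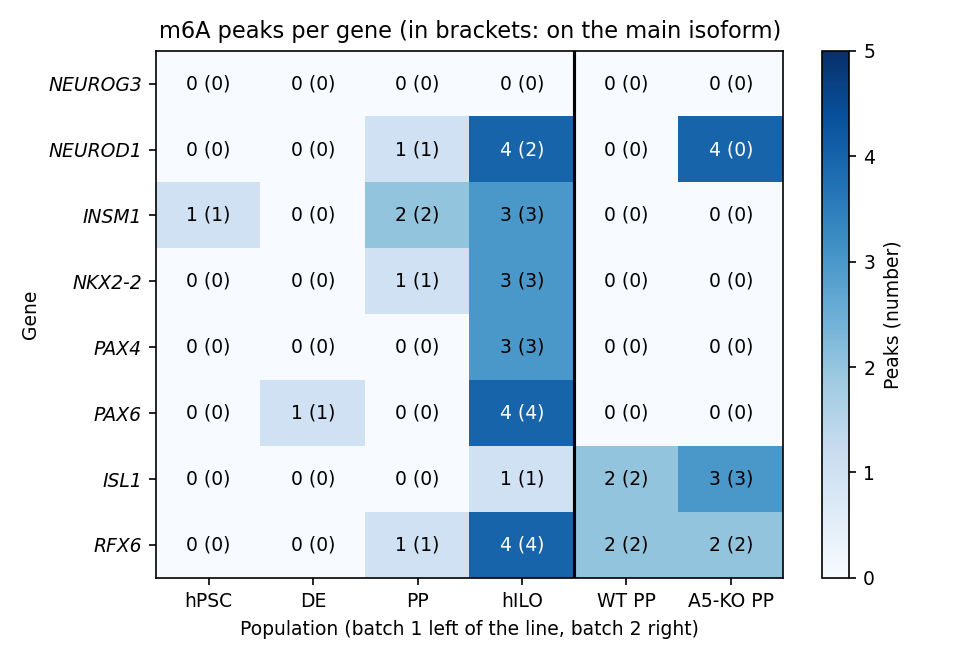
Number of m6A peaks on each of the 8 transcripts (rows) in each peak list (columns), with the number on the main isoform in brackets and darker blue for more peaks. The hILO column holds 22 of the 42 peaks, and the NEUROG3 row is 0 in every list.

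A peak can be called only where enough RNA was sequenced. Input reads inside peaks of all genes ranged from 6987612 (PP) to 28463998 (hILO) over the 6 lists. On the factors they came to 44 (hPSC), 63 (DE), 531 (PP), 9121 (hILO), 1783 (WT PP) and 2787 (A5-KO PP). RFX6 alone gave 1781 (WT PP) and 2544 (A5-KO PP) of these reads. The other 243 in A5-KO PP lay in peaks named jointly for NEUROD1 and its neighbor CERKL, off the main NEUROD1 isoform. In hILO, 387 of the 2296 NEUROD1 reads lay on its main isoform. As RPM, here input reads per 1000000 in-peak input reads of the list, the sums over the factors were 5.52, 5.0, 76.0, 320, 93.7 and 219 in the same order. The ratio of hILO to PP was 4.22 on this scale and 6.78 when scaled by peaks shared by all lists. It was 0.361 per kb of main isoform covered by peaks, where peaks covered 6920 nt of the main isoforms in hILO and 750 nt in PP. The list with the most peaks on the factors also had the most input reads, and the part of depth in the count was not tested. Fewer endocrine cells and less of the transcript in each cell cannot be told apart in these bulk libraries.

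Of the 8 factors, 3 (PAX4, PAX6 and ISL1) had a peak in hILO and none in PP, against 10.8% of coding genes. A peak in PP and none in DE was found for 4 (NEUROD1, INSM1, NKX2-2 and RFX6), against 6.10%. Sharing required that peaks of the other list cover over 50% of the exonic length. None of the 5 PP peaks was shared with DE, against 57.0% of all PP peaks. All 5 PP peaks were covered by hILO peaks, against 60.5% of all PP peaks. In the other direction, only 1 of the 22 hILO peaks, on RFX6, was shared with PP (4.55%, Wilson 95% interval 0.807% to 21.8%), and the other 21 were not, against 54.4% of all hILO peaks. With any overlap counted, 4 of the 22 touched a PP peak, against 56.2% of all hILO peaks. Several of these peaks lie on the same transcript and are not independent.

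The positions along the transcripts differed between the factors. In hILO, the midpoint of 10 peaks lay in the coding sequence, of 7 in the 3′UTR and of 3 in the 5′UTR of the main isoform, and 2 peaks on NEUROD1 lay outside it. Peaks over the stop codon were present in hILO on NEUROD1, INSM1, NKX2-2, ISL1 and RFX6. The 5′UTR peaks belonged to NKX2-2, PAX4 and PAX6. When all peaks of the 6 lists that overlapped on a gene were merged, 26 sites remained. Of these, 18 were found in 1 list, 5 in 2 lists and 3 in 3 or more lists.

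**Figure D2:**
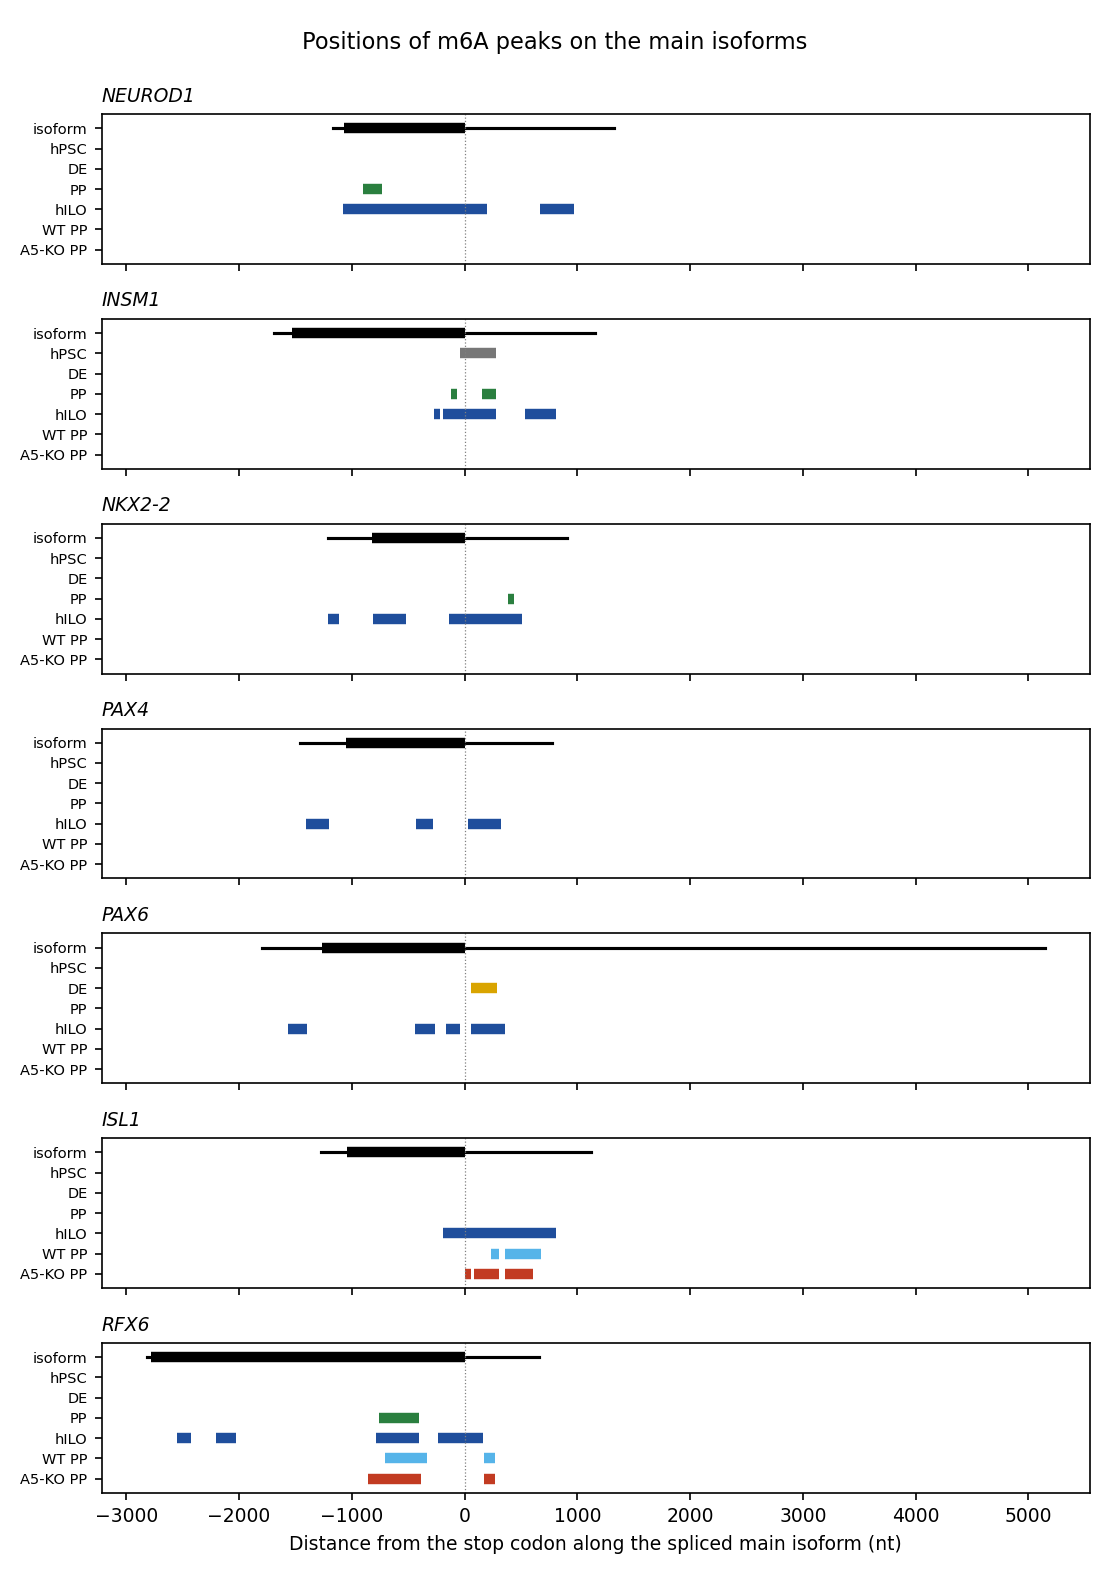
Positions of the peaks on the spliced main isoform of 7 transcripts, as the distance from the stop codon in nt (thick black bar, coding sequence; thin line, UTRs; 1 row of colored bars per peak list). The hILO peaks lie on both sides of the stop codon, and the RFX6 coding peaks of PP, hILO, WT PP and A5-KO PP overlap.

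NEUROG3, the factor that commits progenitors to the endocrine fate, was without a peak in each of the 6 lists used here. Its only isoform on chr10:69571698-69573422 is 1560 nt long, with 2 exons and a GC content of 64.9%. It holds 14 DRACH sites and 6 GGAC sequences. The lists give no reads outside peaks, so an unmethylated transcript and one with too few reads for a peak cannot be told apart.

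NEUROD1 follows NEUROG3 and is also a neuronal factor. In PP it had 1 peak in the coding sequence at chr2:181678524-181678698, with 91 input and 372 IP reads and a log2 enrichment of IP over input of 1.03 (95% counting interval 0.70 to 1.36). In hILO the coding sequence and the beginning of the 3′UTR were covered by a peak at 1.02 (0.75 to 1.28), and a 3′UTR peak at chr2:181676824-181677123 reached 1.88 (1.65 to 2.11). The hILO peak with the most reads, chr2:181673455-181673504, was 50 nt long and held 1883 input and 8112 IP reads. Its log2 enrichment of 2.67 (2.60 to 2.75) was at the 97.2 percentile of all hILO peaks. This peak starts 2963 nt past the 3′ end of the main isoform, in an exon that GENCODE 44 gives to another NEUROD1 isoform, and it holds the GGACT site printed above. It had 37.7 input reads per nt, against 0.713 and 0.121 in the 2 hILO peaks on the main isoform. The cause of this difference was not tested.

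The lists name NEUROD1 together with CERKL, a neighboring gene on the same strand. In A5-KO PP, 3 of the 4 peaks under this joint name touched CERKL exons only. They had 5, 49 and 151 input reads and log2 enrichments of 6.14, 3.32 and 4.67. The last one, at chr2:181657034-181673179, spanned exons of both genes outside the main NEUROD1 isoform, with 38 input and 64 IP reads and a log2 enrichment of 0.75 (0.17 to 1.32). A peak over nearly the same span in hILO had 26 input and 122 IP reads. None of these reads can be given to NEUROD1 rather than CERKL from the lists.

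INSM1, a zinc finger factor of endocrine and neuroendocrine cells, was the only one of the 8 with a peak in hPSC. The hPSC peak crossed the stop codon, with 44 input and 301 IP reads and a log2 enrichment of 1.18 (0.73 to 1.64). PP had a coding peak with 243 input and 1126 IP reads at 0.69 (0.49 to 0.89), and a 3′UTR peak with 82 and 471 reads at 1.48 (1.15 to 1.82). In hILO the peak over the stop codon, chr20:20369604-20370078, had 113 input and 484 IP reads and an enrichment of 1.79 (1.5 to 2.09). This site recurred in hPSC, PP and hILO, but neither PP peak reached the stop codon. The PP peak compared with hPSC was the 3′UTR one, 125 nt long, beside 325 nt in hPSC. The difference of hILO minus hPSC was 0.61 (95% counting interval 0.07 to 1.15), and PP minus hPSC was 0.30, with an interval that crossed 0 (−0.27 to 0.87). These values depend on the scaling. With 1 offset per list they were 1.00 and 0.92, and with the median of peaks of like GC content taken off they were 1.00 and 0.70, against counting errors of 0.276 and 0.289. The most enriched INSM1 peak lay farther down the 3′UTR in hILO, at chr20:20370329-20370603, with 100 input and 374 IP reads and a value of 2.24 (1.92 to 2.56). No INSM1 peak was listed in DE, WT PP or A5-KO PP.

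NKX2-2, a homeobox factor needed for beta cell formation, went from 1 short peak in PP to 3 peaks in hILO. The PP peak in the 3′UTR had 14 input and 54 IP reads and a wide interval (1.79, 0.95 to 2.62). In hILO, the peak over the stop codon at chr20:21511417-21512066 had 1999 input and 5690 IP reads at 1.51 (1.43 to 1.58), the most input reads of any peak on the 8 factors. The coding peak held 1047 input and 2633 IP reads at 1.13, and the 5′UTR peak held 40 and 287 reads at 2.21 (1.74 to 2.69). NKX2-2-AS1 overlaps NKX2-2 on the other strand, and use of strand is stated for the alignment but not for the counting. An antisense peak of 75 nt, which did not touch the NKX2-2 peak of PP, had 577 input and 3045 IP reads in that list, whereas in hILO the antisense peak had 13 and 90 reads. The counts are of whole peaks of 650 and 350 nt in hILO, and how many reads of one gene were given to the other was not tested.

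PAX4, a repressor used by endocrine progenitors of the beta and delta lineages, had 3 peaks, all of them in the hILO list. The 3′UTR peak at chr7:127610742-127611041 had 161 input and 339 IP reads at 1.15 (0.88 to 1.42). Its coding peak had 38 and 192 reads at 2.30 (1.80 to 2.79), and its 5′UTR peak had 159 and 286 reads at 0.96 (0.68 to 1.24). The coding peak was thus above the UTR peaks beyond the counting error.

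PAX6, a paired box factor of all islet endocrine types and of the eye, had 1 peak in DE and 4 in hILO, with none in PP. The DE peak in the 3′UTR, chr11:31789654-31789878, had 63 input and 113 IP reads at 1.89 (1.45 to 2.34). The hILO peak at the same place had 791 and 1196 reads at 1.11 (0.99 to 1.24), and the difference of hILO minus DE was −0.78 (−1.24 to −0.32), where the median over all shared pairs was −0.23. It was −0.49 with 1 offset per list and −0.54 after the GC correction. The other hILO peaks had 95 to 118 input reads and enrichments of 1.47 to 1.69. ELP4 lies on the other strand over the end of PAX6. Its peak there had 121 input and 156 IP reads in DE and 8562 and 19506 in hILO, more than the PAX6 peak in both lists, and how many reads of one gene were given to the other was not tested.

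ISL1, a LIM homeobox factor of islet cells and motor neurons, had peaks in hILO, WT PP and A5-KO PP. The hILO peak ran from the last part of the coding sequence into the 3′UTR, chr5:51391362-51394413, with 109 input and 309 IP reads at 1.79 (1.47 to 2.1). In WT PP, 2 peaks in the 3′UTR had 0 and 2 input reads beside 36 and 87 IP reads. In A5-KO PP, 3 peaks had 0 input reads each beside 25, 48 and 75 IP reads. Their log2 enrichments ranged from 0.81 to 10.84 in A5-KO PP and were 7.85 and 8.97 in WT PP. With input this low the values follow from the model of the peak caller, and a count of 0 allows up to 3 reads as a 1-sided limit. Input at 0 was common in these 2 lists, in 11.5% (WT PP) and 24.6% (A5-KO PP) of all peaks.

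RFX6, a winged helix factor of endoderm and islets, was the only one of the 8 with a peak in 4 lists. Its coding peak over chr6:116927068-116928811 was found in PP (101 input and 573 IP reads), hILO (65 and 161), WT PP (241 and 273) and A5-KO PP (815 and 468). The log2 enrichment at this site was 2.44 (2.14 to 2.75) in PP and 1.47 (1.06 to 1.88) in hILO. The difference of hILO minus PP was −0.97 (−1.49 to −0.46), below 0 by more than the counting error, with −1 inside the interval. Of all 14363 hILO peaks shared with PP, 13.2% were lower by at least 1 and 4.11% were higher by at least 1. Taken from the counts with 1 offset per list, the same difference was −0.70, and it was −1.0 after the GC correction. In hILO the strongest RFX6 signal was over the stop codon, chr6:116928912-116931670, with 813 input and 3650 IP reads and an enrichment of 2.49 (2.38 to 2.60), at the 94.6 percentile of the list. The remaining 2 hILO peaks, toward the 5′ end of the coding sequence, had values of 1.31 and 1.02.

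The median log2 enrichment of the factors' peaks was close to that of the other peaks in hILO (1.55 against 1.53) and PP (1.48 against 1.64). For WT PP the median was 6.04 against 3.65. It lies between 2 RFX6 peaks at 2.80 and 4.23 and 2 ISL1 peaks at 7.85 and 8.97, which had 2 and 0 input reads. For A5-KO PP the median was 4.31 in both sets. The single peaks of hPSC and DE had 1.18 and 1.89, against medians of 1.74 and 1.72.

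WT PP and A5-KO PP were compared to ask how loss of the demethylase affected these transcripts. All 4 WT PP peaks, on ISL1 and RFX6, were covered by A5-KO PP peaks, against 50.0% of all WT PP peaks. In the other direction 3 of the 9 A5-KO PP peaks were shared (33.3%, Wilson 95% interval 12.1% to 64.6%), against 46.8% of all A5-KO PP peaks. The 9 include the 4 joint NEUROD1 and CERKL peaks off the main isoform, none of them shared. On the main isoforms A5-KO PP had 5 peaks, and the 3 shared ones, on ISL1 and RFX6, were among these. Peaks of 1 transcript are not independent, which the interval does not take into account. At the RFX6 3′UTR site, chr6:116931671-116931770, WT PP had 1540 input and 3179 IP reads and A5-KO PP had 1729 and 2950. The enrichment was 4.23 with the enzyme (WT PP) and 4.31 without it (A5-KO PP), and the difference of 0.08 (−0.04 to 0.21) was within counting error. Scaled to the list, the input at this site was 80.9 RPM (WT PP) and 136 RPM (A5-KO PP), and the IP was 53.0 and 76.5 RPM. At the RFX6 coding site the values were 2.80 (WT PP) and 2.05 (A5-KO PP), a difference of −0.74 (−1.04 to −0.44). There the input was at 12.7 RPM (WT PP) and 64.1 RPM (A5-KO PP), and the IP was at 4.55 and 12.1 RPM. These are sums over peaks of unlike length, 375 nt (WT PP) and 475 nt (A5-KO PP). In A5-KO PP the IP reads at this site were fewer than the input reads, and the enrichment above 0 comes from the scaling of the peak caller. This scaling is not confined to 1 peak. Over peaks with at least 50 input reads, log2 values exceeded the log2 count ratio by a median 2.25 (WT PP) and 2.64 (A5-KO PP).

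For the ISL1 3′UTR peak shared by both genotypes the difference was 2.98, with an interval from −1.42 to 7.39 that crossed 0. It was 1.76 with 1 offset per list and 2.5 with a pseudocount of 0.5. None of the 3 shared peaks was lower by at least 1 and 1 was higher, the ISL1 peak. Among all 25833 shared pairs, 38.0% were higher by at least 1 and 28.9% were lower, so the spread over all peaks was wider than the RFX6 differences. After the median difference of peaks of like GC content was taken off, the RFX6 values became −1.04 for the coding site and −0.27 for the 3′UTR site. The libraries were pooled in these lists, so no difference between the genotypes has a replicate check.

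**Figure D3:**
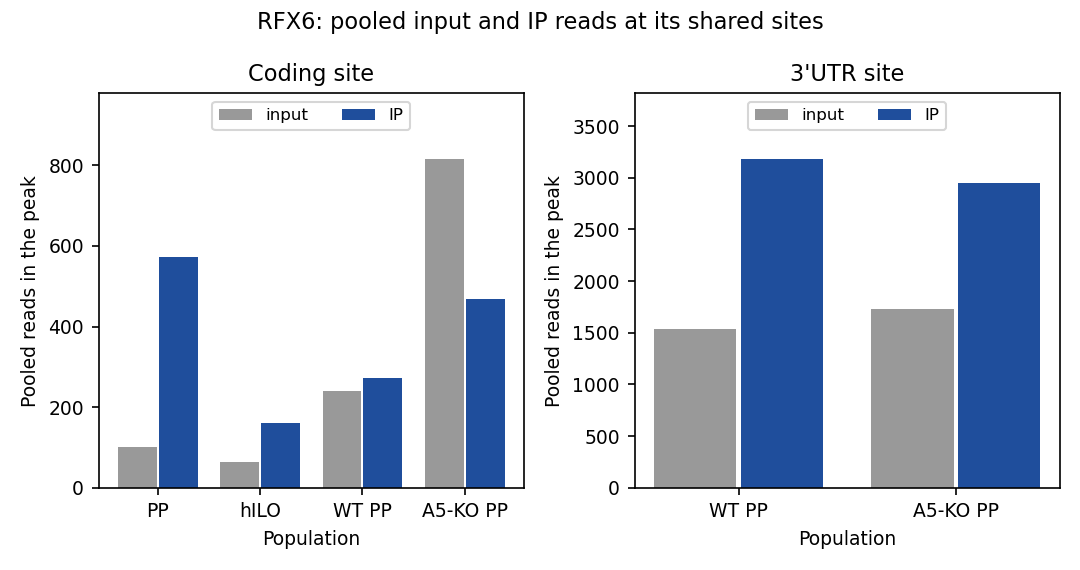
Pooled input (gray) and IP (blue) reads in the RFX6 coding peak of 4 lists (left) and in the RFX6 3′UTR peak of WT PP and A5-KO PP (right), not scaled for depth. At the coding site A5-KO PP had 815 input reads in a peak of 475 nt, against 241 in 375 nt in WT PP. At the 3′UTR site the input reads were 1729 against 1540.

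ALKBH5 itself had 4 peaks with 289 input reads in WT PP and 5 peaks with 1 input read in A5-KO PP, while its IP reads were 836 and 592. Reads in m6A peaks do not show the edited bases, so this is no direct check of the edit.

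Levels of input RNA can be compared between genes only per length. In hILO, the input reads per kb of main isoform covered by peaks were 2940 for NKX2-2, 1530 for RFX6, 1440 for PAX6, 651 for INSM1, 551 for PAX4, 246 for NEUROD1 and 109 for ISL1. The NEUROD1 value leaves out its peak with the most reads, which lies off the main isoform. The Poisson 95% intervals overlapped between RFX6 (1450 to 1600) and PAX6 (1360 to 1530) and between INSM1 (597 to 710) and PAX4 (495 to 611), and not between the other neighbors. Within a transcript the input reads per nt also differed, by 25.9 times between the peaks of INSM1 and by 15.7 times between those of RFX6. This order is therefore a description of the peaks and not of expression.

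The DRACH content of the peaks was searched on the strand of the gene. On the main isoforms in hILO, DRACH sites numbered 19.9 per kb inside peaks and 16.1 per kb outside, a ratio of 1.24. GGAC sites, which are DRACH sites when A, C or T follows, had a ratio of 1.43, and GGACT sites, a subset of both, had 1.93. On the opposite strand the DRACH ratio was 0.901. In batch 2 the order was the other way for DRACH and GGAC. The ratio was 0.707 for DRACH, 0.672 for GGAC and 1.39 for DRACH on the opposite strand in WT PP, and 0.909, 0.813 and 1.2 in A5-KO PP. The GGACT ratio was 2.85 and 2.17, and the values rest on 875 and 1100 nt of peaks. Of the 22 hILO peaks, 21 held a DRACH site, 15 held GGAC and 11 held GGACT. Among hILO peaks of like length, 95.3% held DRACH, 64.7% GGAC and 34.2% GGACT. In PP, 3 of the 5 peaks held a DRACH site, against 84.9% of PP peaks of like length. The DRACH ratio inside to outside peaks was 1.13 in PP, and it was 3.65 and 1.42 for the single peaks of hPSC and DE. INSM1 peaks had few GGAC sites, and the peaks at its recurrent site around the stop codon had none in hPSC, PP or hILO. Both RFX6 coding peaks of PP and hILO held 2 GGACT sites, the printed one among them. The RFX6 3′UTR peak of WT PP and A5-KO PP held 1 DRACH site and no GGAC.

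Other genes of the endocrine program were counted from lists of known regulators and effectors. For comparison, 60.2% (hPSC), 57.0% (DE), 52.2% (PP), 57.7% (hILO), 62.8% (WT PP) and 69.7% (A5-KO PP) of all coding genes had a peak. Among 26 other endocrine regulators, those with a peak numbered 10 (hPSC), 13 (DE), 13 (PP), 21 (hILO), 17 (WT PP) and 19 (A5-KO PP). FOXA2, a pioneer factor of endoderm, had no peak in hPSC, and its input in peaks was 306 RPM (DE), 456 RPM (PP) and 220 RPM (hILO). PDX1, which marks pancreatic progenitors and beta cells, had none in hPSC or DE, and its input in peaks was 380 RPM (PP), 161 RPM (hILO), 65.9 RPM (WT PP) and 196 RPM (A5-KO PP). The input of the whole list was 3610 RPM in PP and 1670 RPM in hILO, so it was lower in hILO where more of the list had a peak. Among 25 endocrine effector genes, the numbers were 12 (hPSC), 7 (DE), 5 (PP), 20 (hILO), 10 (WT PP) and 15 (A5-KO PP). INS and TPH1, which encode insulin and a serotonin synthesis enzyme, had peaks only in the hILO list, with 49368 and 13681 input reads. PCSK2, a prohormone convertase, had 6636 input reads in hILO peaks and 175 in A5-KO PP, and CHGB, a granule protein, had peaks in all 6 lists.

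Markers of other cell types were counted in the same way, and the shares of all coding genes given above apply to them too. Of 5 pluripotency markers, a peak was listed for 3 (hPSC), 3 (DE), 2 (PP) and 1 (hILO), and for none in WT PP or A5-KO PP. SOX2 had none in any list. All 5 liver and all 5 enterochromaffin markers had a peak in hILO, and in PP the counts were 0 and 1. In hILO the liver list came to 1670 RPM, with APOA1 at 1350 RPM. Enterochromaffin markers came to 17.9 RPM (PP) and 792 RPM (hILO), with TPH1 at 481 RPM in hILO. The part of both lists in the factors' hILO peaks was not tested. The enterochromaffin list was at 2.26 RPM (WT PP) and 134 RPM (A5-KO PP), where SLC18A1 and LMX1A were at 80 and 53.9 RPM in A5-KO PP with no peak in WT PP. ADRA2A was at 2.26 RPM in WT PP with no peak in A5-KO PP, and TPH1 and FEV had no peak in either list. The part of this in the RFX6 values was not tested. Neuron and neuroectoderm markers, which bear on NEUROD1, INSM1, PAX6 and ISL1, had a peak for 3 of 10 (hPSC), 2 (DE), 1 (PP), 3 (hILO), 4 (WT PP) and 7 (A5-KO PP). The count in A5-KO PP was near the share of all coding genes there, 69.7%, and the other counts were below theirs. The summed input of these markers was 43.5 RPM in PP, 42.5 RPM in hILO, 88.1 RPM in WT PP, against 255 RPM in A5-KO PP, with SOX1 absent from every list. The PP reads all came from POU3F2 (43.5 RPM, and 3.76 RPM in hILO), while STMN2 and ELAVL3 had none in PP peaks and 31.2 and 7.59 RPM in hILO. ZIC1 gave 168 RPM of the A5-KO PP sum and had no peak in WT PP. ELAVL3 and ELAVL4, at 2.36 and 11.3 RPM, and PAX3, with 3 peaks of 0 input reads, also had peaks in A5-KO PP and none in WT PP. DCX was at 13.7 RPM (WT PP) and 32.6 RPM (A5-KO PP), and OTX2 at 37.3 and 40.7 RPM. POU3F2, at 15.8 and 0.157 RPM, and TUBB3, at 21.3 RPM with no peak in A5-KO PP, went the other way. The part of these markers in the factors' peaks was not tested. Mesoderm markers had a peak for 1 of 6 in hILO, none in PP, 5 with 59.5 RPM in WT PP, and 4 with 18.3 RPM in A5-KO PP, with MYL7 absent from every list, and their part in the ISL1 peaks was not tested. Duct and acinar markers had a peak for 3 of 5 (PP), 3 (hILO), 5 (WT PP) and 2 (A5-KO PP), while their summed input was 185 RPM (WT PP) and 1000 RPM (A5-KO PP), with CFTR at 89.3 and 927 RPM. CEL, CPA1 and KRT19 were at 44.7, 10.2 and 8.25 RPM in WT PP and had no peak in A5-KO PP. The liver list was at 842 RPM (WT PP) and 30.5 RPM (A5-KO PP), with TTR at 823 and 19.7 RPM and AFP the other way, at 0 and 6.92 RPM. The part of this in the RFX6 and ISL1 values was not tested.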

How the data were processed

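The authors trimmed reads with fastp v0.20.1, aligned them to GRCh38 with HISAT2 v2.1.0 (1 alignment kept for each read) and used exomePeak2 to call peaks. The deposited lists give 1 pooled count of input reads and 1 of IP reads per peak, a log2 enrichment of IP over input, and p-values before and after adjustment. Whether pooled counts are sums or means was not stated. Thresholds stated in the methods are IP/input of 1.5 or more and p under 1e-05, but the lists also hold peaks with a larger p. The authors' log2 values come from separate runs per list, so values of different lists are scaled separately.

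The 8 factors, gene lists and comparisons were chosen with earlier results of these data known. All 8 factors are named, with values for their sites in 3 or more lists and for their most enriched and most read peaks. From the other lists at most 4 genes, those with the most input reads in hILO, were to be named, and the 3 genes nearest the median profile of the 8. PDX1 and FOXA2 come under this rule, and TTR does too. SOX1, SOX2 and MYL7, which no list gave a peak, and ZIC1, ELAVL4, PAX3, DCX, OTX2, TUBB3, AFP, LMX1A, CEL and CPA1 were chosen after their values were seen. Peak spans were reduced to exons of GENCODE 44 in Python 3.11.15 with pysam 0.24.0, pandas 2.3.3 and numpy 2.4.6, and placed on the longest coding isoform. The PAX6 isoform so chosen is not its MANE Select isoform. Counting errors took the counts as sums with 0.5 added, and cover counting error only. PCR copies are not independent molecules. The planned edgeR interaction could not be fitted without library counts. Overlap code was tested on simulated data.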

Additional observations from a re-analysis of the deposited data

How the results depend on the processing

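No paired analysis was possible because every peak has 1 pooled count per group. For the same reason no replicate could be left out. Of 125 values under an alternative setting, 85 stayed within their limits and 40 moved. With p below 1e-05, hPSC had 0 factors and 0 peaks, PP 2 and 2, and A5-KO PP 5 peaks. With p below 1e-10, hPSC and DE had 0 factors and 0 peaks, PP 1 and 1, WT PP 1 and 1, A5-KO PP 2 peaks and hILO 13 peaks. With an IP/input ratio of at least 3, hPSC had 0 and 0, PP 2 and 2, and hILO 11 peaks. With at least 10 input reads, WT PP had 1 factor and 2 peaks and A5-KO PP 5 peaks. On the main isoform, an alternative chosen after seeing the data, A5-KO PP had 5 peaks. Corrected for GC content, the RFX6 differences of A5-KO PP minus WT PP were −1.04 at the coding site and −0.27 at the 3′UTR site. With 1 offset per list, hILO minus PP at RFX6 was −0.70, and also with a pseudocount of 0.5. For INSM1 and PAX6 the alternatives were added after seeing the data. With 1 offset per list, with pseudocount 0.5 and after GC correction, INSM1 was 1.00, 0.99 and 1.00 for hILO minus hPSC and 0.92, 0.91 and 0.70 for PP minus hPSC, and PAX6 was −0.49, −0.50 and −0.54 for hILO minus DE. The ratio of hILO to PP input was 6.78 when scaled by shared peaks and 0.361 per kb covered. The GGACT ratio was 1.93. A minimum of 50 input reads left no value for ISL1 or INSM1 and changed none for RFX6 or PAX6. The causes were not tested. Input scaling was tried on the summed reads of the factors only, not per factor. Input reads in peaks were lowest in PP, and the part of depth in absent peaks was not tested.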

Other observations

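Outside the 8 factors, the genes whose input reads in peaks followed the median profile of the factors most closely over hPSC, DE, PP and hILO were LRRC7, IL1R1 and MTNR1A. The distance on the log2 scale of RPM plus 1 (RPM, input reads per 1000000 in-peak input reads) was 0.168 for LRRC7, 0.324 for IL1R1 and 0.409 for MTNR1A, over 4 populations. All 3 had no reads in peaks in hPSC or DE and values of 4.96, 5.12 and 4.88 in hILO, against 4.80 for the median of the factors. MTNR1A encodes a melatonin receptor and IL1R1 an interleukin-1 receptor. Nothing beyond the likeness of the values was measured.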
